A study of Saccharomyces cerevisiae with 4 samples.

Results

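The 35 genes described here build the yeast peroxisome and break down fatty acids inside it. They are every open reading frame on the array whose standard symbol is PEX followed by a number (29 genes) or is POX1, FOX2, POT1, FAA2, PXA1 or PXA2 (6 genes), out of 6211 in all. This list of names was drawn up with earlier results of these data known. All 35 such symbols of the yeast R64 gene table were on the array. The study set a strain labelled GCN2c against a wild type of Saccharomyces cerevisiae, both harvested in log phase from rich medium (YPD) at 28 °C, at an absorbance (Ab660) of 0.6 and from 50 mL of culture. The sample labels call GCN2c a mutant, whereas the series' design text calls it an overexpressing strain. GCN2 encodes a protein kinase that senses amino acid shortage through uncharged tRNA and lowers translation initiation. The strain background, the nature of the GCN2c allele and any marker shared by both strains were not stated in the labels, which name no drug or stress.

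RNA of both strains was hybridised together on each of 4 spotted arrays, so each value is a log2 ratio of one strain over the other. GCN2c was labelled with Cy5 on replicates 1 and 3 and with Cy3 on replicates 2 and 4. Ratios are read as GCN2c over wild type. This direction is likely and not settled, because GCN2c is the Cy5 channel on replicates 1 and 3 but no label names the numerator, and the opposite reading would swap higher and lower in every sentence. With replicates 2 and 4 alone turned to the opposite sign, 10 of the 35 means changed sign, so every highest or lowest place given below holds for the ratios as deposited. The log base is taken as 2 and is not stated either.

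Several features of the whole data set bear on every value below. Replicates 2 and 4 were nearly identical: the SD of their gene differences was 0.0638, against 0.852 between replicates 1 and 3. They differed by at most 0.018 on any of the 35 genes, so they were averaged and counted as 1 sample, which leaves n = 3. GCN2 itself had log2 ratios of -0.39 and 0.10 on replicates 1 and 3 and -0.68 on the 2 and 4 mean. Its mean was -0.33 ± 0.39 (SD, n = 3, limma adjusted p = 0.453). The overexpression named in the design text was thus not seen at its spot. Among markers of mating type, genes expressed in alpha cells also set the 2 and 4 mean apart. Of 4 genes expressed in alpha cells, MF(ALPHA)1 stood at 4.93, STE3 at 3.76, MF(ALPHA)2 at 1.69 and SAG1 at 0.07 there, while on replicates 1 and 3 these genes lay between -1.42 and 0.17, with no STE3 value on replicate 3. The means of 6 genes expressed in a cells (MFA1, MFA2, STE2, STE6, BAR1 and AGA2) lay between -1.09 and -0.21, with none past the threshold. These a-cell genes did not set the 2 and 4 mean apart as a list. Their median was -0.36 on replicate 1, -0.33 on replicate 3 and -0.41 on the 2 and 4 mean. Whether RNA from cells of another mating type contributed to any result was not tested, and in RNA from whole cultures fewer cells of a type and less RNA per cell cannot be told apart.

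Peroxisomes are small membrane-bound organelles that import folded enzymes from the cytosol. The receptors Pex5 and Pex7 carry enzymes with different targeting signals to a docking complex in the membrane, and are then ubiquitinated by a RING complex and pulled back out by an ATPase complex. In budding yeast the peroxisome is the only site of fatty acid beta-oxidation: fatty acids enter through the Pxa1-Pxa2 transporter or are activated inside by Faa2, and Pox1, Fox2 and Pot1 shorten the chain. The oxidation genes are repressed by glucose and induced by oleate through the activators Oaf1, Pip2 and Adr1, and YPD is a glucose medium.

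None of the 35 genes passed the test of the ratio against 0 (limma, Benjamini-Hochberg adjusted p under 0.05 over 6130 genes). Over all genes tested 2.06% passed, 1.73% as higher and 0.326% as lower in the strain labelled GCN2c. At an unadjusted p under 0.05, POT1 and FAA2 passed, or 5.71% of the 35, whereas 20.7% of all tested genes did. The share of the members at an unadjusted p under 0.05 was 31.4% with the 4 columns as 4 replicates, beside 36.1% of all tested genes. It was 17.6% without replicates 2 and 4 (27.5% of all tested genes), 20.0% with dye as a term (33.5%) and 2.86% with replicates 2 and 4 turned (4.08%). One-class SAM, the test that the design text names, called none of the 35 on the 3 replicates (0.979% of all tested genes) and called POT1 when the 4 columns were counted as 4 replicates (3.07%). Without replicates 2 and 4, which stand apart in the alpha-cell genes, limma called POT1 among 34 genes with a value, 2.94%, beside 5.89% of all genes tested. The median of the 35 mean log2 ratios was 0.06, beside -0.06 over all tested genes. On replicate 1, replicate 3 and the 2 and 4 mean the median gene of the 35 stood at 0.17, 0.05 and -0.06, a mean of 0.05 ± 0.12 (SD, n = 3), beside -0.03, -0.05 and -0.09 over all tested genes.

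**Figure D1:**
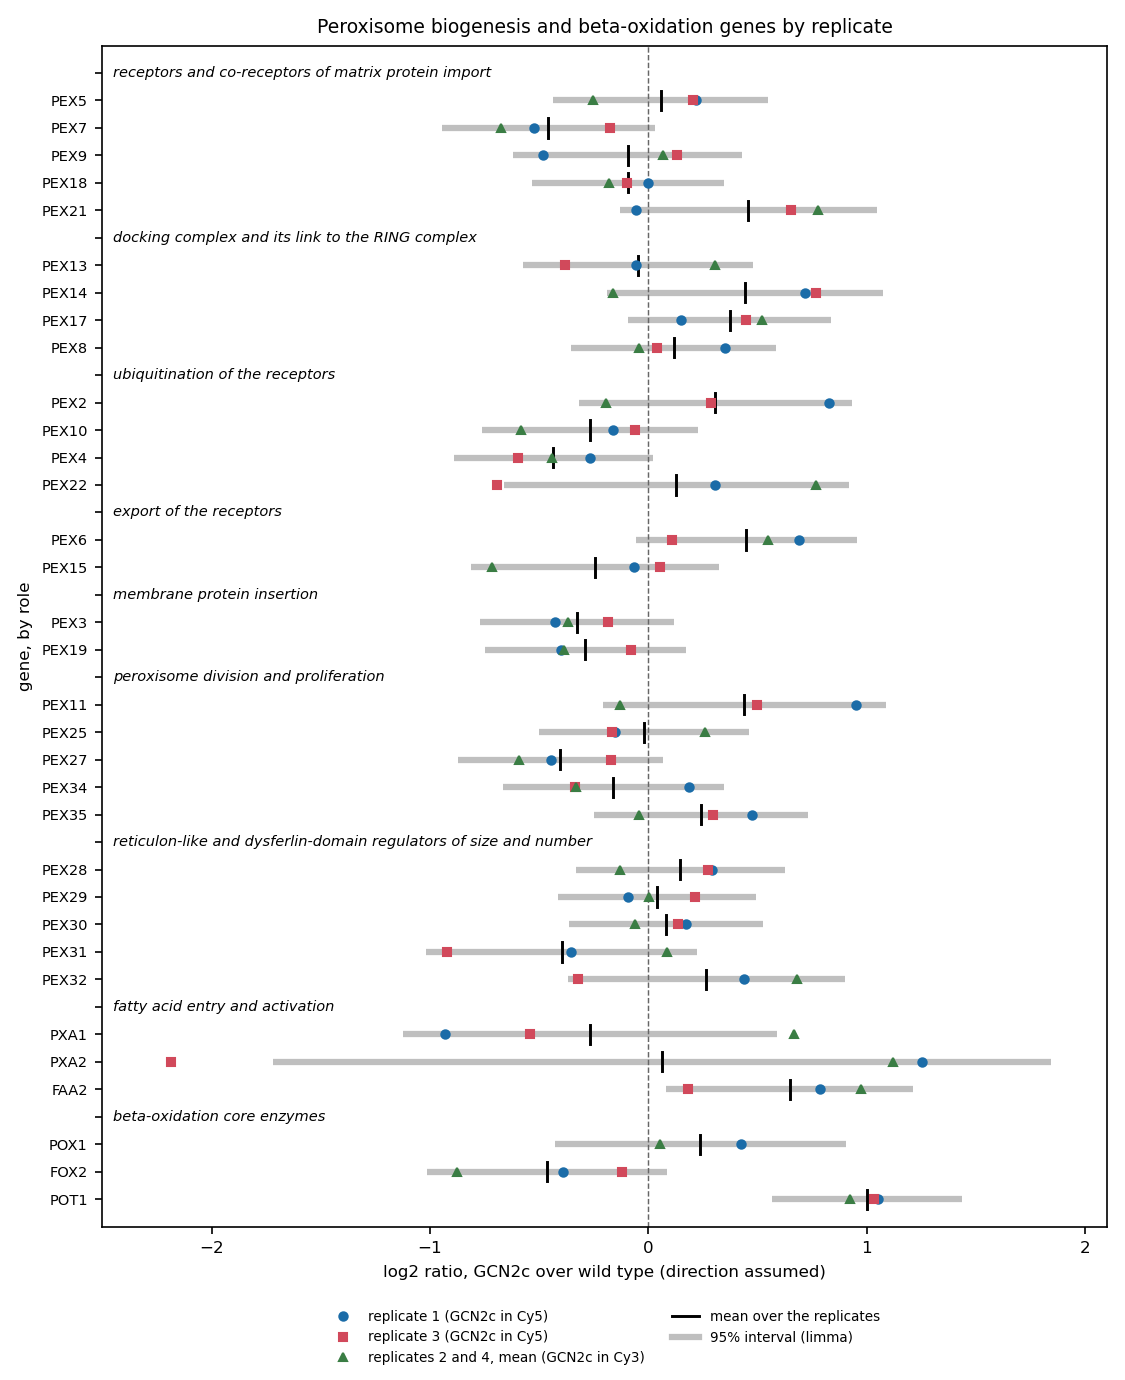
Log2 ratio of GCN2c over wild type (horizontal axis) for 33 of the 35 genes, grouped by role, with a symbol for each replicate, a black bar for the mean and a grey bar for limma's 95% interval. POT1 and FAA2 alone have intervals that do not reach 0, and replicate 3 of PXA2, at -2.18, is the value farthest from 0.

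None of the 3 enzymes of the beta-oxidation spiral passed the test. POT1 encodes the thiolase that releases acetyl-CoA in the last step of each round. Its log2 ratio was 1.05 on replicate 1, 1.03 on replicate 3 and 0.92 on the 2 and 4 mean, the highest mean of the 35 at 1.00 ± 0.07 (SD, n = 3; limma adjusted p = 0.0621). The replicates of POT1 thus lay within 0.13 of each other in both dye orientations, and its 95% interval ran from 0.57 to 1.44. The call is close to the threshold: the adjusted p was 0.0404 without replicates 2 and 4, 0.0292 with dye as a term, 0.0497 with array medians set to 0 and 0.0456 over genes with a value on every array, and it was 0.326 without replicate 3. With replicates 2 and 4 turned to the opposite sign the mean was 0.39 (adjusted p = 0.944).

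FOX2 encodes the multifunctional enzyme that carries out the hydratase and dehydrogenase steps just before the thiolase. It stood at -0.39, -0.12 and -0.88 on replicate 1, replicate 3 and the 2 and 4 mean, the lowest mean of the 35 at -0.46 ± 0.38 (SD, n = 3; limma adjusted p = 0.302). All its replicates were below 0, and the spread among them was wide. With replicates 2 and 4 turned its mean was 0.12 (adjusted p = 0.980). POX1, the acyl-CoA oxidase of the first step, had no value on replicate 3 and stood at 0.42 on replicate 1 and 0.05 on the 2 and 4 mean, a mean of 0.24 (n = 2; adjusted p = 0.642). POX1 was the only one of the 35 genes with a missing value. Within the same array, POT1 exceeded FOX2 by 1.45 on replicate 1, 1.15 on replicate 3 and 1.80 on the 2 and 4 mean, a mean difference of 1.47 ± 0.33 (SD, n = 3). This pair was picked after its values were seen, so its difference is a description.

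FAA2, the acyl-CoA synthetase that activates medium-chain fatty acids inside the organelle, was also above 0 on every replicate. It stood at 0.78 on replicate 1, 0.18 on replicate 3 and 0.97 on the 2 and 4 mean, a mean of 0.65 ± 0.41 (SD, n = 3; limma adjusted p = 0.200). Replicate 3 was the low one of the 3, and the 95% interval of the mean ran from 0.08 to 1.21. The adjusted p for FAA2 was 0.0465 when the 4 columns were counted as 4 replicates, and with replicates 2 and 4 turned its mean was -0.0025. In the R64 gene table FAA2 overlaps BUD25 by 160 bases, and BUD25 was not analysed here, so how far its transcript reaches the FAA2 spot was not tested.

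The genes of the fatty acyl-CoA transporter had the most discordant replicates of the set. Pxa1 and Pxa2 pair in the peroxisomal membrane to form an ABC transporter for long-chain acyl-CoA. PXA2 stood at 1.25 on replicate 1, -2.18 on replicate 3 and 1.12 on the 2 and 4 mean, a mean of 0.06 ± 1.95 (SD, n = 3; limma adjusted p = 0.975). The mean of PXA2 was 1.19 without replicate 3 (adjusted p = 0.213), -0.53 without replicate 1 and -0.47 without replicates 2 and 4, so replicate 3 decides its value. PXA1 stood at -0.93 and -0.54 on replicates 1 and 3 and at 0.67 on the 2 and 4 mean, a mean of -0.27 ± 0.83 (adjusted p = 0.705), and its sign split by dye orientation. PXA2 exceeded PXA1 by 2.19 on replicate 1 and by 0.45 on the 2 and 4 mean, and PXA2 minus PXA1 was -1.64 on replicate 3. No common direction of the transporter's subunits could be read from these arrays.

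**Figure D2:**
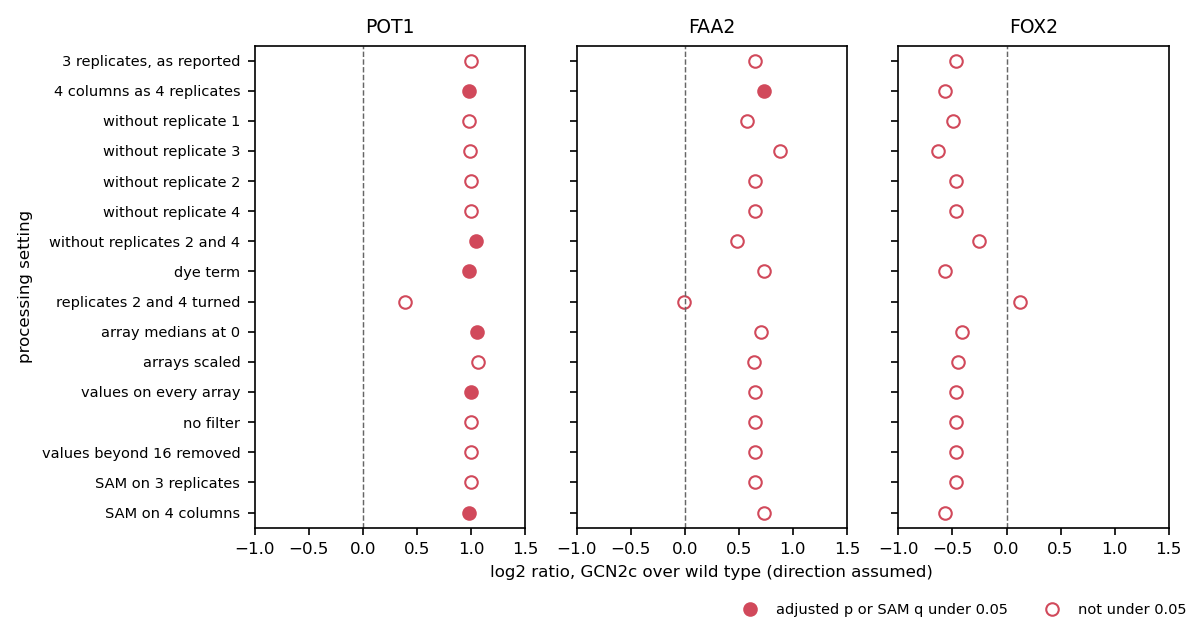
Log2 ratio (horizontal axis) of POT1, FAA2 and FOX2 under each processing setting other than turning every array (vertical axis), with filled circles where the adjusted p, or the q of SAM, was under 0.05. Among the settings drawn, POT1 stays between 0.98 and 1.07 except at 0.39 with replicates 2 and 4 turned, while whether it passes changes between settings.

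None of the 5 genes for the import receptors and co-receptors passed the test. PEX5 encodes the receptor for enzymes with the C-terminal signal, which most matrix enzymes carry. PEX5 stood at 0.22 and 0.20 on replicates 1 and 3 and -0.25 on the 2 and 4 mean, a mean of 0.06 ± 0.27 (SD, n = 3; limma adjusted p = 0.905). PEX7, the receptor for the N-terminal signal that Pot1 carries, stood at -0.52, -0.17 and -0.68 on replicate 1, replicate 3 and the 2 and 4 mean, a mean of -0.46 ± 0.26 (adjusted p = 0.266). PEX7 was below 0 on every replicate while POT1, which encodes its cargo, was above 0 on every replicate, and neither passed the test. The contrast between PEX7 and POT1 was not tested and is a description. PEX21, a co-receptor of Pex7, had the highest mean of all the PEX genes at 0.46 ± 0.45, with -0.06 on replicate 1, 0.65 on replicate 3 and 0.78 on the 2 and 4 mean (adjusted p = 0.333). With replicates 2 and 4 turned, PEX21 was at -0.06 (adjusted p = 0.991) and PEX7 at -0.0073. PEX18, the other co-receptor, lay between -0.18 and -0.004 on all replicates, with a mean of -0.09 ± 0.09. PEX9, which encodes an oleate-induced receptor related to Pex5, stood at -0.48 on replicate 1 and at 0.13 and 0.07 on replicate 3 and the 2 and 4 mean.

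The docking genes were mostly above 0 in mean, with little agreement between dye orientations. PEX14, the main docking subunit, stood at 0.72 and 0.77 on replicates 1 and 3 and -0.16 on the 2 and 4 mean, a mean of 0.44 ± 0.52 (SD, n = 3; limma adjusted p = 0.378). PEX17, a partner of Pex14, was the docking gene above 0 on every replicate, with 0.15, 0.45 and 0.52 and a mean of 0.37 ± 0.20 (adjusted p = 0.319). PEX13, the SH3-domain subunit, was the lowest of the docking genes at -0.05 ± 0.34, with its 2 and 4 mean at 0.30 and replicates 1 and 3 at -0.06 and -0.38, and its mean was 0.01 with array medians set to 0. PEX8, which links docking to the RING complex from inside the organelle, had a mean of 0.12 ± 0.21.

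Genes for ubiquitination and export of the receptors had means on both sides of 0, and none passed the test. PEX4, the ubiquitin-conjugating enzyme, was below 0 on every replicate, at -0.27 on replicate 1, -0.60 on replicate 3 and -0.44 on the 2 and 4 mean. Its mean was -0.44 ± 0.17 (SD, n = 3; limma adjusted p = 0.257), with an adjusted p of 0.0471 when the 4 columns were counted as 4 replicates. PEX22, which anchors Pex4 at the membrane, stood at 0.31, -0.69 and 0.77 on replicate 1, replicate 3 and the 2 and 4 mean, a mean of 0.13 ± 0.75. Of the RING ubiquitin ligase genes, PEX2 was the highest of this group at 0.31 ± 0.51, with 0.83 and 0.29 on replicates 1 and 3 and -0.20 on the 2 and 4 mean. PEX10 was below 0 on every replicate with a mean of -0.27 ± 0.28. In the export complex PEX6, which encodes an ATPase, was above 0 on every replicate, at 0.69, 0.11 and 0.55 with a mean of 0.45 ± 0.30 (adjusted p = 0.285). PEX15, which anchors the ATPase complex at the membrane, was lowest of the export genes at -0.24 ± 0.41, with -0.72 on the 2 and 4 mean against -0.07 and 0.05 on replicates 1 and 3.

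Both genes for insertion of peroxisomal membrane proteins lay below 0 on every replicate, as did 1684 of the 5997 tested genes with 3 values. Pex19 is the soluble receptor and chaperone for these proteins, and Pex3 receives it at the membrane. PEX3 stood at -0.43, -0.18 and -0.37 on replicate 1, replicate 3 and the 2 and 4 mean, a mean of -0.33 ± 0.13 (SD, n = 3; limma adjusted p = 0.356). PEX19 stood at -0.40, -0.08 and -0.39, a mean of -0.29 ± 0.18 (adjusted p = 0.426). The replicates of PEX3 spanned 0.244 and those of PEX19 0.323, and neither gene passed the test. With replicates 2 and 4 turned, the means were -0.08 for PEX3 and -0.03 for PEX19.

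Genes for the division and number of peroxisomes had means on both sides of 0, and none passed the test. PEX11, which promotes peroxisome division and is induced by oleate, stood at 0.95 on replicate 1, 0.50 on replicate 3 and -0.13 on the 2 and 4 mean, a mean of 0.44 ± 0.54 (SD, n = 3; limma adjusted p = 0.388). PEX27, a relative of PEX11, was the lowest of the division genes, at -0.45, -0.17 and -0.59 and a mean of -0.40 ± 0.21 (adjusted p = 0.297). PEX25, the other relative of PEX11 in yeast, averaged -0.02 ± 0.24, and 0.03 with array medians set to 0. PEX34 and PEX35, which also affect peroxisome number, had means of -0.16 and 0.24. The genes PEX28 to PEX32 encode membrane proteins that regulate peroxisome size and number. PEX32 was the highest of them, at 0.44, -0.32 and 0.68 and a mean of 0.27 ± 0.52, and PEX31 the lowest, at -0.36, -0.92 and 0.09 and a mean of -0.40 ± 0.51 (adjusted p = 0.417). PEX28, PEX29 and PEX30 averaged between 0.04 and 0.15, and no gene among PEX28 to PEX32 had the same sign on all 3 replicates.

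The agreement in sign between replicates was low over the set. Of the 34 genes with 3 values, 12 had the same sign on all replicates (35.3%, beside 46.6% of all tested genes with 3 values). Of these 12, POT1, FAA2, PEX6 and PEX17 were above 0, and FOX2, PEX3, PEX4, PEX7, PEX10, PEX18, PEX19 and PEX27 were below 0. A further 14 genes (41.2%, beside 25.0% of all tested genes) had one sign on replicates 1 and 3 and the opposite sign on the 2 and 4 mean. In 10 of the 14 the ratio was above 0 with GCN2c in Cy5 and below 0 with GCN2c in Cy3, among them PEX2, PEX5, PEX8, PEX11, PEX14, PEX28, PEX30 and PEX35. PEX13, PEX25, PEX31 and PXA1 showed the converse. The other 8 of the 34 genes differed in sign between replicates 1 and 3. Over all tested genes with 3 values, 1110 were above 0 on every replicate and 1684 below. Another 832 were above 0 on replicates 1 and 3 and below 0 on the 2 and 4 mean, and 668 showed the converse. A dye effect and a difference between cultures cannot be told apart here, because the arrays with GCN2c in Cy3 stand for 1 hybridisation.

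**Figure D3:**
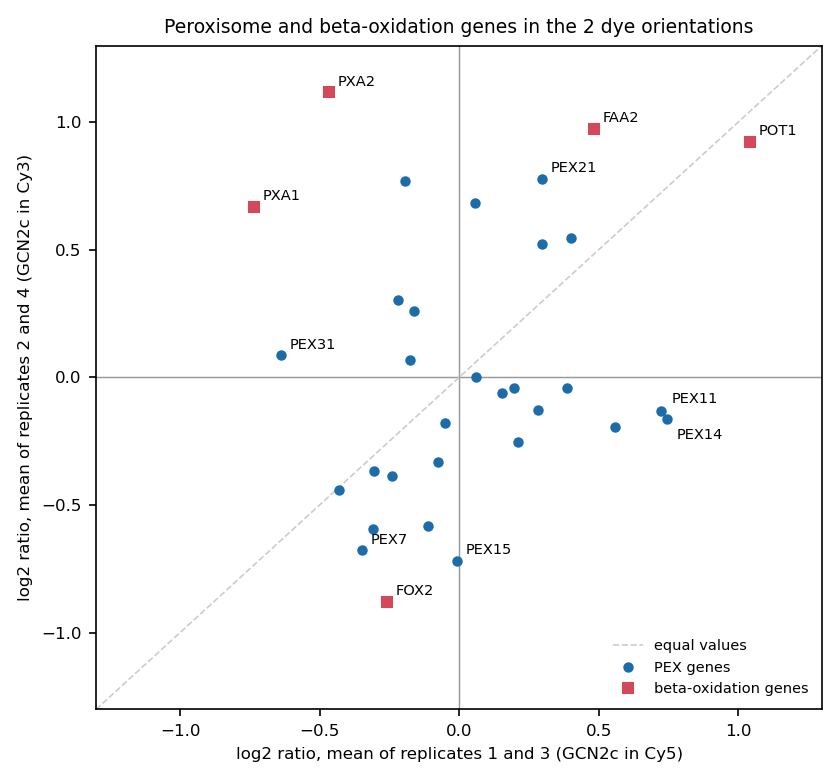
Log2 ratio on the mean of replicates 2 and 4, with GCN2c in Cy3 (vertical axis), against the mean of replicates 1 and 3, with GCN2c in Cy5 (horizontal axis), for 32 of the 34 genes with 3 values; circles are PEX genes and squares beta-oxidation genes. POT1 lies near the line of equal values at about 1, and PEX11 and PEX14 lie right of and below the origin.

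Across the 34 genes replicates 1 and 3 correlated at Pearson r = 0.153 and Spearman rho = 0.450, and at r = 0.592 without PXA2. Replicate 1 and the 2 and 4 mean correlated at r = 0.406 over all 35 genes, POX1 included (0.316 without PXA2). Replicate 3 and the 2 and 4 mean correlated at r = -0.144 over the 34 genes (0.150 without PXA2). Over all tested genes the Pearson correlations of these pairs were 0.485, 0.179 and 0.293, in the same order. Spearman rho of the pairs was 0.450, 0.387 and 0.066 over the members and 0.571, 0.165 and 0.381 over all tested genes. All these correlations are descriptions over genes that share arrays and carry no test. The median SD between replicates was 0.30 for the 34 genes and 0.33 for all tested genes with 3 values.

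The 95% intervals bound how large a change these arrays would allow. For 26 of the 35 genes (74.3%, beside 65.2% of all tested genes) the interval lay wholly within a 2-fold change in either direction, that is, between -1 and 1 on the log2 scale. The exceptions were POT1, FAA2, FOX2, PXA1, PXA2, PEX11, PEX14, PEX21 and PEX31. POT1 was the single gene of the 35 whose mean exceeded 1 in size (2.86%, beside 5.63% of all tested genes). The intervals rest on 3 replicates and assume no dye effect.

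The regulators of fatty acid genes were examined as a list of 7 genes chosen for their role. None passed the test, and 2 (28.6%) were at an unadjusted p under 0.05, beside 20.7% of all tested genes. ADR1, the zinc-finger activator of glucose-repressed and peroxisomal genes, stood at 1.03, 1.54 and 1.13 on replicate 1, replicate 3 and the 2 and 4 mean, a mean of 1.23 ± 0.27 (SD, n = 3; limma adjusted p = 0.0528). ADR1 was under the threshold in 7 of 14 alternatives, among them without replicates 2 and 4 (adjusted p = 0.0371), and at 0.270 without replicate 3. PIP2, the oleate-responsive partner of Oaf1, stood at 0.76, 0.57 and 0.86, a mean of 0.73 ± 0.15 (adjusted p = 0.123, and 0.0452 with dye as a term). OAF1 itself had a mean of 0.05 ± 0.31. SNF4, a subunit of the Snf1 kinase that relieves glucose repression, was the lowest at -0.18 ± 0.47, and SNF1 stood at 0.25 ± 0.12.

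Other enzymes of fatty acid use gave no call. Of 10 auxiliary beta-oxidation and peroxisomal protection genes measured, none passed and 2 were at an unadjusted p under 0.05, a share no higher than the 20.7% of all tested genes. PCS60, a peroxisomal CoA synthetase, was the highest at 0.70 ± 0.35 (SD, n = 3; limma adjusted p = 0.166), with 0.87, 0.94 and 0.29, and FAT1, which takes part in very long-chain fatty acid activation, the lowest at -0.46 ± 0.66, with -0.68, -0.97 and 0.28. TES1, the peroxisomal thioesterase, stood at 0.64 ± 0.46 (adjusted p = 0.220), and CTA1, the peroxisomal catalase, at 0.07 ± 0.37. ECI1 was not analysed here. Of 10 glyoxylate cycle and carnitine shuttle genes none passed, with 1 at an unadjusted p under 0.05, again a share below 20.7%. YAT2, a carnitine acetyltransferase, was the highest at 0.79 ± 0.54 (adjusted p = 0.181), and MLS1, malate synthase, the lowest at -0.54 ± 1.72, a value set by -2.52 on replicate 1 against 0.45 and 0.46 on the others.

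Among 6 matrix enzymes outside beta-oxidation, STR3 and LYS1 passed the test as higher and none passed as lower. Over all tested genes 1.73% passed as higher. At an unadjusted p under 0.05 the share was 66.7% of the 6, beside 20.7% of all tested genes. STR3, whose enzyme turns cystathionine into homocysteine on the way to methionine, stood at 3.09, 4.30 and 3.19 on replicate 1, replicate 3 and the 2 and 4 mean (mean 3.53 ± 0.67, SD, n = 3; limma adjusted p = 0.0114). LYS1, which catalyses the last step of lysine synthesis, stood at 1.74, 1.83 and 1.65 (mean 1.74 ± 0.09; adjusted p = 0.0191). AAT2, an aspartate aminotransferase, and PNC1, a nicotinamidase, were above 0 on every replicate at 0.94 ± 0.32 and 0.85 ± 0.08 without passing (adjusted p = 0.103 and 0.0903). GTO1, a glutathione transferase, was the lowest at -0.53 ± 1.86, with -2.67 on replicate 3. STR3 and LYS1 are also amino acid synthesis genes, and they were placed on the list with their ratios already known. The shares of this list are therefore descriptions and not a result about matrix enzymes.

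**Figure D4:**
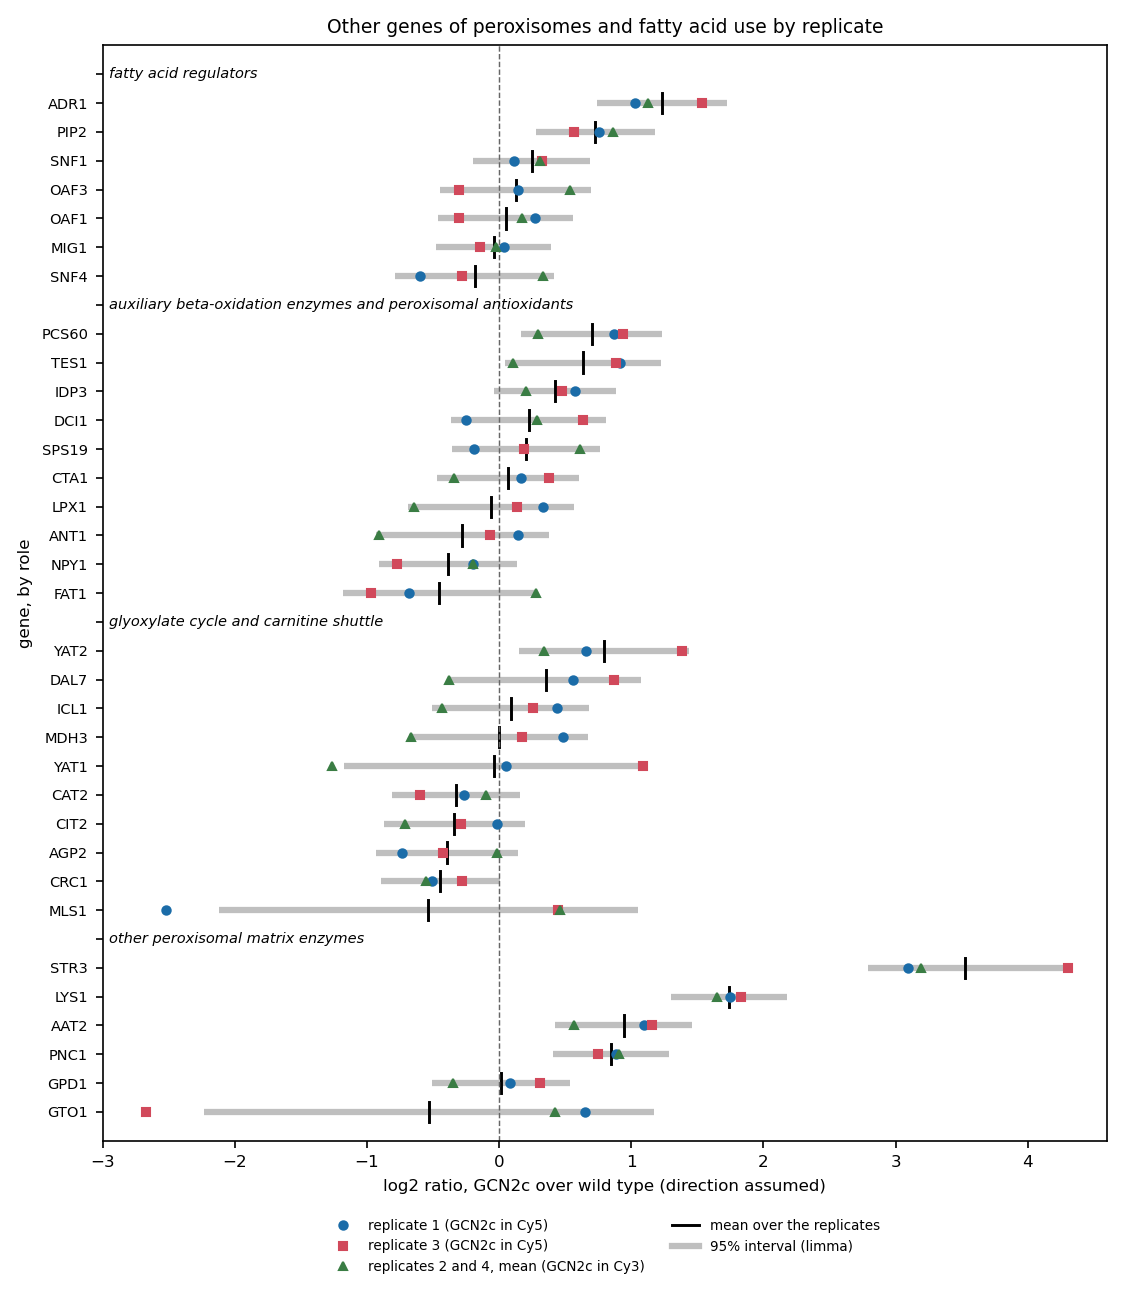
Log2 ratio (horizontal axis) for 33 other genes of peroxisomes and fatty acid use, in 4 lists sorted by mean, drawn as in the plot of genes by role. STR3, at 3.53, and LYS1, at 1.74, are the genes that passed the test, and ADR1 lies at 1.23.

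Genes for the fission, inheritance and turnover of peroxisomes (10 measured) gave no call, where 2.06% of all tested genes passed. Of the 10, 1 (10%) was at an unadjusted p under 0.05, beside 20.7% of all tested genes. ATG36, the receptor for autophagy of peroxisomes, was the highest at 0.58 ± 0.17, with 0.41, 0.59 and 0.75 (SD, n = 3; limma adjusted p = 0.174). INP2, the receptor that ties peroxisomes to the myosin motor for transport to the bud, was the lowest at -0.46 ± 0.31 and was below 0 on every replicate. Among 10 genes listed as glucose-repressed none passed. Of them 3 (30.0%) were at an unadjusted p under 0.05, beside 20.7% of all tested genes, and the median of the 10 was 0.17. SIP18, a gene induced by drying and osmotic stress, was the highest at 1.10 ± 0.60 (adjusted p = 0.125), and ADH2, the glucose-repressed alcohol dehydrogenase that Adr1 activates, the lowest at -0.90 ± 0.26 (adjusted p = 0.103). ADH2 was below 0 on every replicate, at -0.79, -0.71 and -1.19. CYB2, the lactate dehydrogenase gene of the list, was above 0 on every replicate, at 1.27, 1.03 and 0.83 with a mean of 1.04 ± 0.22 (adjusted p = 0.0677, the nearest to the threshold in this list).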

How the data were processed

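Values are the log2 ratios deposited by the authors, 1 per open reading frame on each of 4 two-colour arrays. Per the labels' protocols, 30 µg of total RNA per strain was labelled through amino-allyl cDNA, and the authors left out spots with defects or with a signal under a set multiple of the local background in either channel. Spot intensities were not used here, and the number of arrays limits the precision. Normalization, centring, direction and log base are not given in the sources used here. Array medians were -0.03, -0.09, -0.05 and -0.09 for replicates 1 to 4, and no further centring was applied. Replicate numbers follow the sample labels.

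Of 6211 names, 5639 matched the locus tags of the R64 table and 5662 did with case ignored. The build behind the ratios is not named, so no coordinates are given. The 4 array pairs of opposite dye orientation had a median correlation of 0.237 as deposited and were read as turned to one direction by the authors. Replicates 2 and 4 were averaged. The 6130 genes with 3 or 4 array values entered a two-sided, intercept-only fit against 0 (R 4.3.3, limma 3.58.1), with Benjamini-Hochberg adjustment over all of them and a threshold of 0.05. The scripts were tested on simulated data. Nothing in the labels says the replicates were separate cultures beyond the design text's word biological, and p-values measure the spread between them.

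The members and lists were chosen with earlier results of these data known. Of the 35 members, 2 are counted but not reported here by name or plotted. Replicate values are written out for the beta-oxidation genes, for members at an unadjusted p under 0.05 and for the highest and lowest of each role group, and list genes are named where they passed or were the highest or lowest. Other genes named with values, such as PEX7's co-receptors, TES1, CTA1 and CYB2, were chosen after their values were seen.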

Additional observations from a re-analysis of the deposited data

How the results depend on the processing

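Apart from the settings that turn the sign of arrays, 14 alternatives gave 487 values for the 35 genes. Of these, 479 lay within 1 SD of the reported value on the same side of the threshold, and 8 passed the threshold, for POT1, FAA2 and PEX4. Leaving out 1 of 3 replicates cannot move a mean by the SD of the 3, and several settings leave the mean unchanged. The count within 1 SD was therefore largely fixed in advance and is no measure of how stable the values are. The number of the 35 called higher was 2 with the 4 columns as 4 replicates, and 1 without replicates 2 and 4, with dye as a term, with array medians at 0, over genes with values on every array and by SAM on 4 columns, against 0 as reported. The number called lower was 1 with the 4 columns as 4 replicates. With the 4 columns as 4 replicates, 8.57% of the members were called in either direction, beside 17.3% of all tested genes. The shares were 2.94% without replicates 2 and 4 (5.89% of all tested genes) and 2.86% with dye as a term (10.6%). They were 2.86% with array medians at 0 (2.48%), 2.94% over genes with values on every array (3.19%) and 2.86% by SAM on 4 columns (3.07%). The number at an unadjusted p under 0.05 was 11 with the 4 columns as 4 replicates, 6 without replicates 2 and 4, 7 with dye as a term and 1 with replicates 2 and 4 turned, against 2 as reported. These are 31.4%, 17.6%, 20.0% and 2.86% of the members with a value, and over all tested genes the shares under the same settings were 36.1%, 27.5%, 33.5% and 4.08%. The dye term and the fit without replicates 2 and 4 take their spread from replicates 1 and 3 alone, and the 4 columns count a near-duplicate as a replicate. With replicates 2 and 4 turned, 10 of the 35 means changed sign. With every array turned, the median of the 35 was -0.063, STR3 stood at -3.53 and LYS1 at -1.74. With replicates 2 and 4 turned, STR3 stood at 1.402 and LYS1 at 0.64 and neither passed. Scaling the arrays turned the sign of PXA2 to -0.09.

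Over all tested genes the 126 calls became 1062 with the 4 columns as 4 replicates, 74 without replicate 3, 353 without replicates 2 and 4, 650 with dye as a term, 0 with replicates 2 and 4 turned, 80 with arrays scaled, 191 over genes with values on every array, 60 by SAM on the 3 replicates and 188 by SAM on 4 columns. Each array holds both strains, so the test of its ratio against 0 already compares them as a pair, and no further pairing was applied. Signal over background could not be judged without intensities.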
